A study of Ambystoma mexicanum with 60 samples.

Results

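The germ granule and piRNA pathway genes DDX4, PIWIL1, PIWIL2, TDRD1, TDRD7, TDRD9, MAEL and DAZL were examined along the animal-vegetal axis of the axolotl (Ambystoma mexicanum) egg and early embryo. Members were all transcripts whose human gene symbol in the symbol table of the study equals 1 of these 8 names. Of 28909 transcripts in the count table, 16245 carry a human symbol, and 7 transcripts of 6 of the 8 genes matched. DDX4 was represented by a pair of transcripts, written here as DDX4-1 (AMEXTC_0340000005429) and DDX4-2 (AMEXTC_0340000009610). TDRD1 (AMEXTC_0340000145140), TDRD7 (AMEXTC_0340000237897), TDRD9 (AMEXTC_0340000159158), MAEL (AMEXTC_0340000046688) and DAZL (AMEXTC_0340000246019) had 1 transcript each. No measured transcript carried the symbol PIWIL1 or PIWIL2, and both genes were therefore not analysed here. All 7 transcripts passed the minimum of the study, a mean total above 20 normalized counts in at least 1 stage, as did 28772 of all transcripts.

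Embryos were taken from natural matings of adult animals, without any treatment being given in the labels, at the 1-cell (fertilized egg), 4-cell, 64-cell and 1K-cell (early blastula) stages. Each of the 12 embryos, 3 at each stage, was frozen, cut from the animal to the vegetal pole and distributed into 5 sections, from A (extremely animal) through B, C and D to E (extremely vegetal), the TOMO-seq approach. A library was made from total RNA of each section after removal of ribosomal RNA, and 59 of the 60 labelled libraries were analysed, since the submitters removed section D of 1-cell replicate 3 as an outlier. The labels give neither the strain nor the parents of an embryo, and the study used more than a single pair of parents, so any effect of parentage was not tested. The same mass of RNA entered each library, so every level below is a share of the RNA of that section. More of a transcript in a section cannot be told apart from less of the other RNA there. At the 64-cell and 1K-cell stages, fewer cells of a type and less RNA per cell cannot be told apart either.

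Germ granules are RNA-protein bodies of germ cells. Their DEAD-box helicase DDX4 (Vasa), the tudor domain proteins that bind methylated arginines of PIWI proteins, and MAEL work together with PIWI-bound small RNAs (piRNAs) to silence transposons. DAZL is an RNA-binding protein that promotes translation of germ cell mRNAs. In frogs and zebrafish, germ plasm inherited from the egg carries several such RNAs, and in frogs it lies at the vegetal pole, whereas axolotl germ cells are induced later in the mesoderm. The question was whether the members shared the vegetal profile of the germ-line RNAs GRIP2, DND1, NANOS1, RBPMS2 and TFAP2C or were spread evenly. These 5 genes served as reference, each by its most abundant transcript, and were chosen because they were known to be vegetal in these libraries. In all, 10 transcripts carry their symbols, and edgeR called 7, 6, 7 and 5 of them vegetal from the first to the last stage by the section test described below. Of the transcripts not used as reference, a GRIP2 transcript (AMEXTC_0340000192585) was not called at any stage, with differences between -1.29 and -0.09, and neither was a second RBPMS2 transcript (AMEXTC_0340000294788), with differences between -0.05 and 1.24. A TFAP2C transcript (AMEXTC_0340000023612) was also not called at any stage, with differences between 4.09 and 9.26. A transcript can thus miss the call in spite of a large vegetal difference.

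No member shared the steep vegetal profile of GRIP2, DND1, NANOS1 and TFAP2C, which few of all transcripts have. The shallower profile of RBPMS2 was close to that of DAZL at the 64-cell and 1K-cell stages, and the difference between them was not tested. TDRD1, a tudor scaffold protein of germ granules, was lower towards the vegetal pole and passed the section test at the 1-cell stage. DDX4-1 was lower vegetally and passed at the 64-cell stage. DAZL was the only member whose mean level in section E was above that in section A at the 1-cell, 64-cell and 1K-cell stages together, without passing the section test at any stage. Across development the sole change of summed counts per embryo that passed the test was a rise of DDX4-1 to 2.03-fold from the 1-cell to the 4-cell stage.

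Section differences were tested within each stage with edgeR's quasi-likelihood test of all sections, with a term for the embryo, and a transcript was called at a Benjamini-Hochberg adjusted p below 0.01. The direction was read from the vegetal-to-animal difference, which subtracts the log2 mean of the animal sections (A, B) from that of the vegetal sections (D, E) and is given ± SE with n = 3 embryos. Since 1-cell replicate 3 lacks section D, the fitted level of D at that stage rests on 2 embryos, and wherever the direction in single embryos is given, its value is that of section E alone against A and B. At the 1-cell stage 1 of the 7 members was called, TDRD1, against 6.96% of all transcripts in either direction and 1.34% in the animal direction, and DESeq2 called 3 (TDRD1, MAEL and DAZL) against 16.4%. At the 64-cell stage 1 of 7 was called, DDX4-1, against 3.72% and 0.407%, and DESeq2 called 2 (DDX4-1 and TDRD1) against 9.96%. At the 4-cell stage 0 of 7 were called by edgeR against 2.26% of all transcripts, 1 member had an unadjusted p under 0.05, and DESeq2 called 1 (TDRD1) against 7.92%. At the 1K-cell stage 0 of 7 were called by edgeR against 3.56%, 2 members had an unadjusted p under 0.05, and DESeq2 called 1 (TDRD1) against 9.31%. No member was called in the vegetal direction by edgeR at any stage, where 5.62%, 2.09%, 3.31% and 3.22% of all transcripts were called from the first to the last stage, and DESeq2 called 1 member vegetal, DAZL at the 1-cell stage. The share of all transcripts that DESeq2 called vegetal is not given here. The median vegetal-to-animal difference of the 7 members was -0.11 at the 1-cell stage, -0.60 at the 4-cell stage, -0.43 at the 64-cell stage and -0.27 at the 1K-cell stage, beside medians over all transcripts between -0.0383 and -0.00315. The 4-cell median is the value of the low-count TDRD9 (-0.60 ± 0.51), and the other medians are those of DDX4-1. A shift of the members as a set was not tested.

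**Figure D1:**
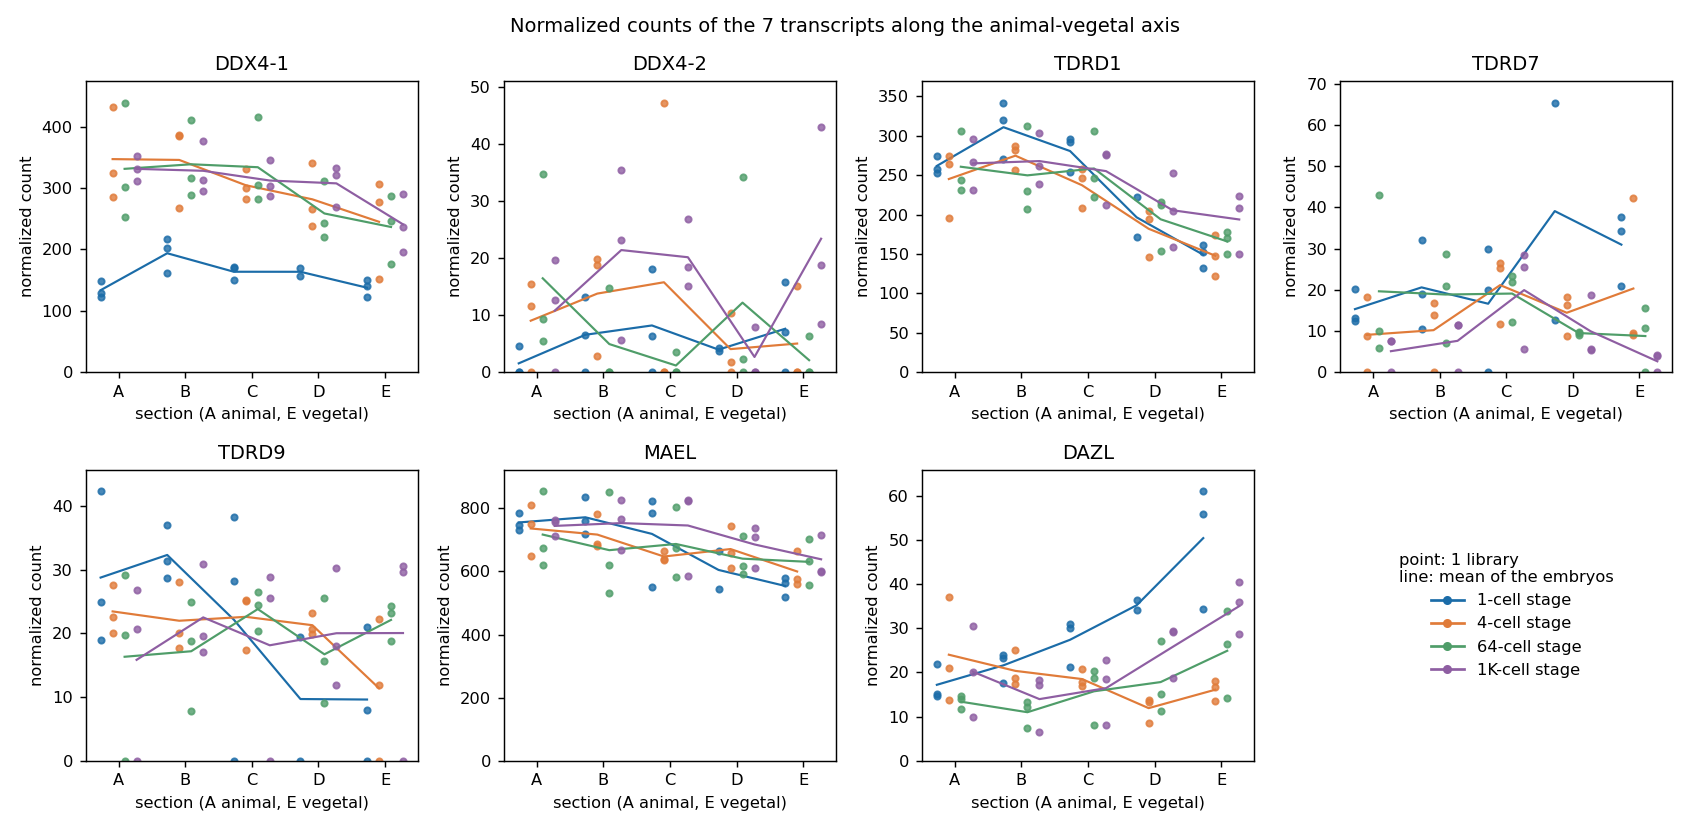
Normalized counts (y axis, own scale in each panel) of the 7 transcripts in sections A to E (x axis), with 1 point per library and a line through the mean of the embryos of each stage. TDRD1 falls towards section E at every stage, DAZL is highest in section E at the 1-cell stage, DDX4-1 lies lower at the 1-cell stage than later in all 5 sections, and DDX4-2, TDRD7 and TDRD9 scatter at low counts.

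DDX4 encodes the Vasa helicase, the classical component of germ granules. In the 1-cell embryos DDX4-1 was at 148, 129 and 123 normalized counts in section A and at 140, 151 and 122 in section E. Section B held 162, 202 and 217, section C 171, 170 and 150, and section D 170 and 157 in the 2 embryos measured there. The levels of A and E overlapped, with the highest values in section B. The vegetal-to-animal difference was -0.11 ± 0.11 (adjusted p = 0.146).

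At the 64-cell stage DDX4-1 was at 302, 439 and 253 in section A and at 316, 411 and 289 in section B. Section C held 304, 415 and 282, section D 243, 312 and 220, and section E 246, 287 and 176. The embryos differed in level, and in each of the 3 the values of D and E were below those of A and B. The share of all transcripts with this order was not computed. The difference was -0.43 ± 0.06 (adjusted p = 0.00636). The call rests on comparing sections within an embryo, since the adjusted p was 0.986 without the embryo term, and it was lost when any of the 3 embryos was left out (adjusted p = 0.0808 without replicate 1, 0.272 without replicate 2 and 0.154 without replicate 3). At the 4-cell stage the difference was -0.39 ± 0.18 (adjusted p = 0.802) and at the 1K-cell stage -0.27 ± 0.10 (adjusted p = 0.296). At the 1K-cell stage the 3 section E values of DDX4-1, 195, 291 and 236, were all below the lowest value of sections A and B, 294, which held for 5.18% of all transcripts.

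The second transcript, DDX4-2, is listed in the symbol table as a paralog of DDX4-1 with the same best protein match, so the counting may have split reads between them. DDX4-1 held from 93.3% to 98.9% of the DDX4 counts of an embryo. DDX4-2 had a median of 7 counts per library and was at 0 in 21 of 59 libraries, where a count of 0 allows up to 3 counts. With both transcripts summed, the section call at the 64-cell stage was kept (-0.44, adjusted p = 0.00372).

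TDRD1 is a tudor domain scaffold that binds PIWI proteins in germ granules of mouse and zebrafish. At the 1-cell stage it was at 253, 274 and 258 normalized counts in section A, 270, 321 and 342 in section B, and 254, 295 and 292 in section C. Section D held 171 and 222, and section E 153, 161 and 133. All values of D and E were below all values of A, B and C. For section E against A and B alone this held for 9.46% of all transcripts at this stage. The vegetal-to-animal difference was -0.74 ± 0.08 (adjusted p = 8.13e-04). Leaving out replicate 1, 2 or 3 kept the size (between -0.67 and -0.81) but ended the call (adjusted p = 0.0382, 0.0861 and 0.0369).

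The animal-to-vegetal decline of TDRD1 had the same direction in each embryo of the later stages. At the 4-cell stage section E held 122, 174 and 147 normalized counts beside 265, 196 and 275 in section A. At the 64-cell stage section E held 178, 170 and 150 beside 231, 306 and 244 in section A, and at the 1K-cell stage 150, 208 and 223 beside 232, 267 and 296. In each of the 4 stages all 3 section E values lay below all values of sections A and B, which held for 0.886% of all transcripts. Over all 4 stages only this direction was examined, and TDRD1 was the only member with the order. The percent is therefore no measure of how unusual TDRD1 is. The difference was -0.66 ± 0.13 at the 4-cell stage (adjusted p = 0.0845), -0.50 ± 0.09 at the 64-cell stage (adjusted p = 0.0334) and -0.41 ± 0.09 at the 1K-cell stage (adjusted p = 0.122). DESeq2's likelihood-ratio test called TDRD1 at all 4 stages, with the weakest adjusted p at the 1K-cell stage (0.00468). The section by stage interaction, fitted without an embryo term, did not pass for TDRD1 (edgeR adjusted p = 1).

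TDRD7, a tudor and LOTUS domain protein of germ granules in mouse and zebrafish, had a median of 13 counts per library and was at 0 in 7 of 59. At the 1-cell stage it was at 20.1, 12.5 and 13.2 normalized counts in section A and at 34.3, 37.6 and 20.9 in section E. At the 64-cell stage section A held 9.99, 43.1 and 5.78, and section E 10.7, 15.5 and 0. The E values lay above the A values at the 1-cell stage but overlapped with those of section B. The share of all transcripts with E above A was not computed. At the 64-cell stage the E and A values overlapped, with the E value of 0 below all of section A. The vegetal-to-animal difference was 0.98 ± 0.82 at the 1-cell stage and -0.93 ± 0.62 at the 64-cell stage (adjusted p = 0.940 and 0.862), so an even distribution and a gradient of the size seen for DAZL could not be distinguished at this depth.

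TDRD9, a tudor domain helicase needed for piRNA function in the mouse male germ line, had a median of 24 counts and was at 0 in 8 of 59 libraries. At the 1-cell stage it was at 42.3, 25.0 and 19.0 in section A and at 7.91, 0 and 20.9 in section E. The values of sections A and E overlapped, while section B, at 31.4, 37.0 and 28.6, was above all values of E. The share of all transcripts with B above E was not computed. The difference was -2.24 ± 1.07 (adjusted p = 0.699), a fitted value that depends on the libraries at 0. Between the 4-cell and 1K-cell stages the difference ranged from -0.60 to 0.30, and the adjusted p values were 0.916 or higher. The table lists an unnamed paralog of TDRD9 (AMEXTC_0340000159159), which was at 0 in 46 of 59 libraries.

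MAEL, an HMG-box protein of the piRNA silencing pathway, was measured with a median of 727 counts per library and was never at 0. At the 1-cell stage it was at 732, 747 and 786 normalized counts in section A, 718, 761 and 835 in section B, and 550, 822 and 785 in section C. Section D held 545 and 664, and section E 520, 565 and 578. The 3 values of section E were below all values of A and B, as were those of 9.46% of all transcripts at this stage. The difference was -0.38 ± 0.08 (edgeR adjusted p = 0.0540, DESeq2 adjusted p = 6.01e-04). At each later stage the values of sections E and A overlapped, and the difference was between -0.19 and -0.11 (adjusted p between 0.635 and 0.822).

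DAZL was higher vegetally at the 1-cell stage, as were the low-count TDRD7 and DDX4-2 by their fitted differences. TDRD7 was at 0.98 ± 0.82 and DDX4-2 at 0.98 ± 1.31, and neither passed the section test. At the 1-cell stage DAZL was at 15.1, 14.6 and 21.9 normalized counts in section A and 23.9, 17.7 and 23.2 in section B. Section C held 21.3, 30.9 and 30.0. Section D held 36.4 and 34.0, and section E 34.3, 61.0 and 55.9. The 3 values of section E were above all values of A and B, as were those of 12.0% of all transcripts at this stage. The difference was 1.17 ± 0.23, an increase in 3 of 3 embryos that missed the threshold (edgeR adjusted p = 0.0437) and passed it with DESeq2 (adjusted p = 3.43e-04) and when only the vegetal-to-animal contrast was tested, an alternative chosen after seeing the data (adjusted p = 0.00796, a rule that 8.06% of all transcripts passed in either direction).

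At the 4-cell stage DAZL was at 21.0, 13.8 and 37.1 in section A, and at 13.5, 16.7 and 18.0 in section E. Section D held 13.8, 8.57 and 13.3, the lowest mean of the 5 sections. Section B held 17.3, 18.6 and 25.0, and section C 20.8, 16.9 and 17.7. The values of D were below all values of B and C and overlapped with those of A by a narrow margin (13.838 against 13.832). Section E overlapped with A and B. The share of all transcripts with this order was not computed. The difference was -0.64 ± 0.26, lower vegetally in 3 of 3 embryos (adjusted p = 0.669). At the 64-cell stage section A held 14.6, 11.6 and 13.9 and section E 14.3, 34.0 and 26.4. At the 1K-cell stage section A held 9.89, 20.0 and 30.5 and section E 40.4, 35.9 and 28.6. The difference was 0.71 ± 0.27 and 0.88 ± 0.34, higher vegetally in 3 of 3 embryos at both stages (adjusted p = 0.465 and 0.436). DAZL had between 5 and 47 counts per library, and its section by stage interaction did not pass the test over all transcripts (edgeR adjusted p = 0.779, 0.284 with a term for each embryo, and DESeq2 0.266).

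**Figure D2:**
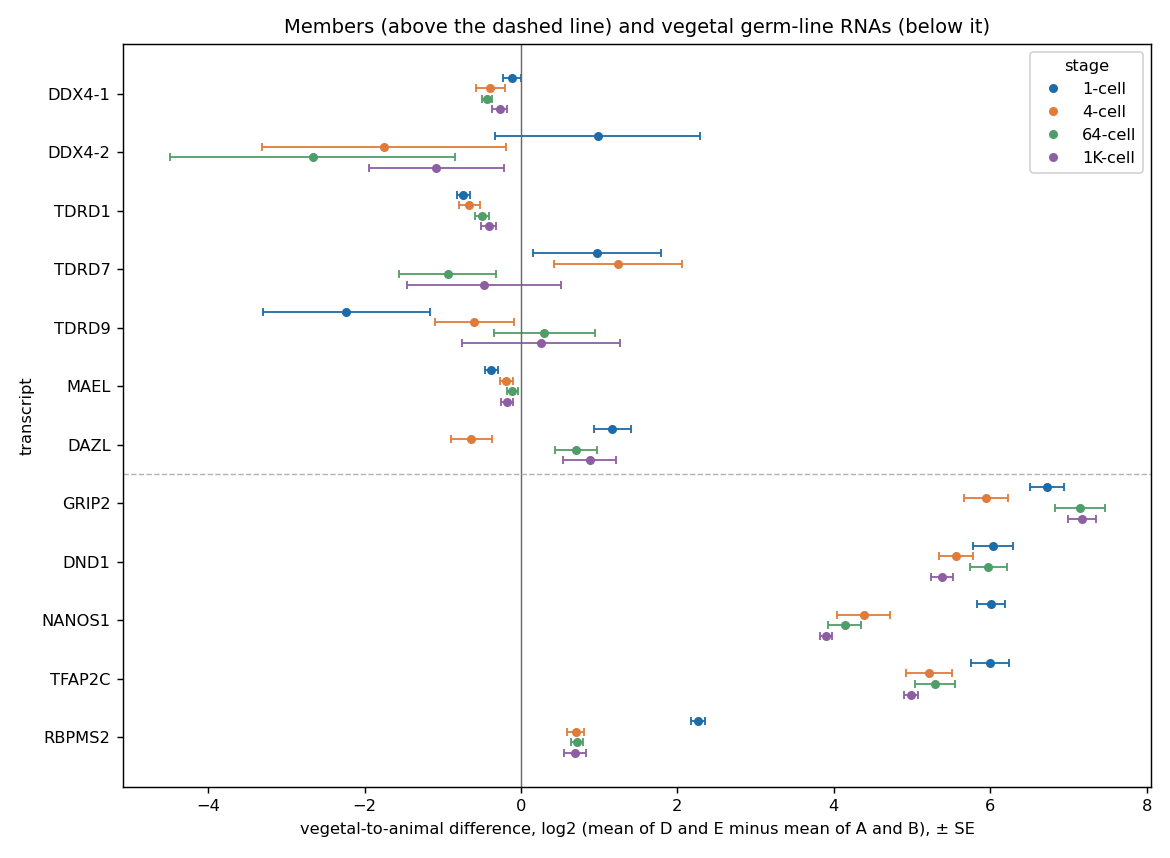
Vegetal-to-animal difference on the log2 scale (x axis; mean of sections D and E minus mean of A and B, point ± SE from edgeR, 3 embryos a stage) of the 7 members and of the 5 vegetal germ-line RNAs (y axis), coloured by stage. The differences of TDRD1 lie between -0.74 and -0.41 and those of MAEL between -0.38 and -0.11, while GRIP2 lies between 5.95 and 7.18 and RBPMS2 between 0.69 and 2.26.

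The reference RNAs showed what a vegetal profile looks like on the same scale. The difference of GRIP2, a scaffold protein whose RNA is part of the germ plasm in frog and zebrafish, was 6.73 ± 0.21 at the 1-cell stage, and that of DND1, a germ cell RNA-binding protein, was 6.04 ± 0.25. RBPMS2, the weakest of the 5, had a difference of 2.26 ± 0.09 in 1-cell embryos that was 0.69 ± 0.14 in 1K-cell embryos, where it did not pass the test (adjusted p = 0.0817). All 5 references changed their profile between stages by the interaction test, which 0.841% of all transcripts passed, and 0 of the 7 members did by edgeR or by DESeq2, where the background was 2.05% (1 member, DAZL, had an unadjusted p under 0.05).

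To use all embryos at once, 1 section profile was fitted over the 59 libraries with a term for each embryo, an analysis added after seeing the data. By this fit 3 of the 7 members were called, all in the animal direction, against 9.99% of all transcripts in that direction and 22.2% in either. TDRD1 was at -0.57 ± 0.05 (adjusted p = 4.84e-12) and lower vegetally in 12 of 12 embryos. DDX4-1 was at -0.32 ± 0.06 (adjusted p = 1.61e-04) and MAEL at -0.21 ± 0.04 (adjusted p = 9.86e-05), each lower vegetally in 11 of 12 embryos. The call of MAEL ended without the 1-cell stage (adjusted p = 0.0216) and that of DDX4-1 without the 64-cell stage (adjusted p = 0.0193), while TDRD1 passed without each stage in turn. DAZL was at 0.53 ± 0.16 and higher vegetally in 9 of 12 embryos without passing the threshold (adjusted p = 0.0128). Without the 4-cell stage, the stage where its difference had the opposite sign, it was at 0.90 and passed (adjusted p = 8.83e-05). Without the 1-cell, 64-cell or 1K-cell stage DAZL was at 0.34, 0.47 and 0.40 and did not pass (adjusted p = 0.222, 0.177 and 0.182). TDRD7, TDRD9 and DDX4-2 did not pass (adjusted p between 0.630 and 0.937).

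The weight of the vegetal tip in a profile was described by the section E share. It is the normalized count in E as a percent of that in A, B, C and E. Section D was left out because 1 embryo lacks it. Each count being a share of the RNA of its section, the percent compares levels. It does not give the part of the molecules of an embryo that lie in E. An even profile gives 25%, and the median over 25251 transcripts was 24.5%. The mean share over the 12 embryos was 17.2% for TDRD1, 20.1% for DDX4-1 and 21.9% for MAEL, and 18.9%, 22.4% and 19.3% for the low-count DDX4-2, TDRD7 and TDRD9. DAZL had the highest mean of the members with 35.7%, a value above that of 90.0% of transcripts. Its share was 36.2%, 49.1% and 42.7% in the 1-cell embryos, 18.6%, 25.3% and 18.4% at the 4-cell stage, 32.2%, 43.4% and 36.5% in 64-cell embryos, and 44.8%, 50.9% and 29.9% in 1K-cell embryos. The 4-cell values were all below those of the other stages, as in 0.400% of transcripts. This pattern was picked after the values of DAZL were seen, so the percent is no measure of how unusual DAZL is. The interaction test above did not pass for DAZL.

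**Figure D3:**
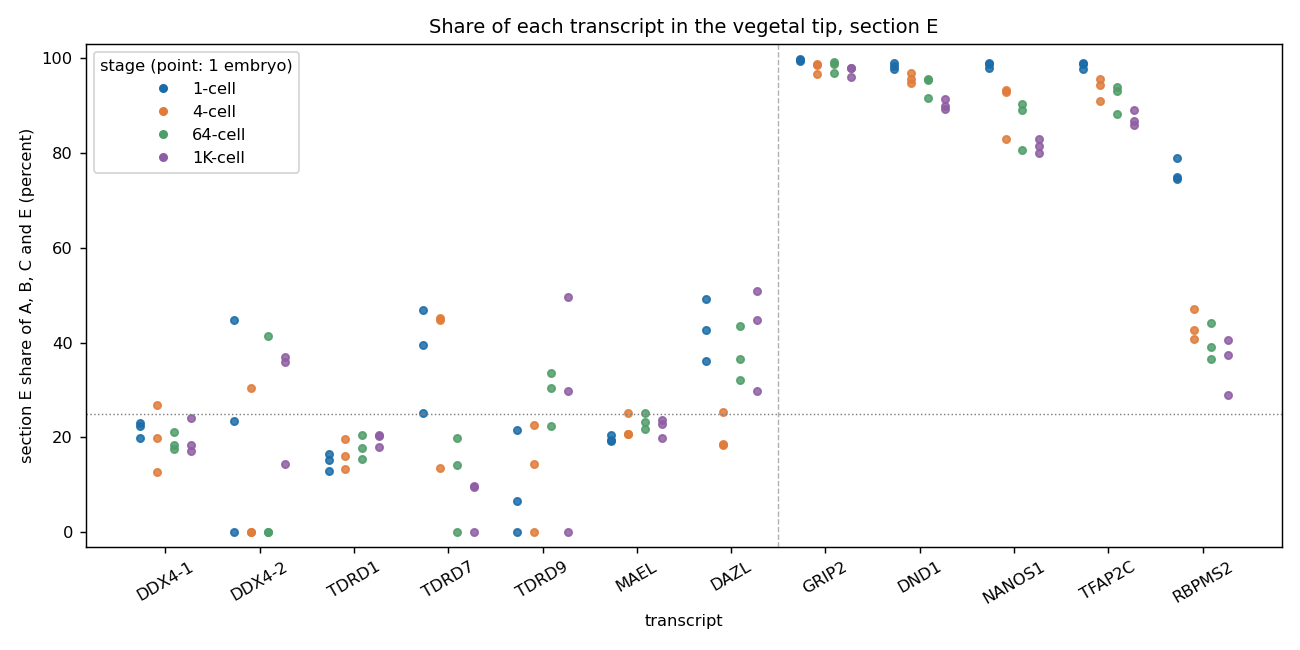
Section E share (y axis, percent of the normalized counts in sections A, B, C and E) of each member and reference RNA (x axis), with 1 point per embryo, coloured by stage. The dotted line marks an even profile of 25%. GRIP2, DND1, NANOS1 and TFAP2C lie far above the members in each stage. RBPMS2 lies above DAZL in all embryos of the 1-cell and 4-cell stages, overlaps with it at the 64-cell stage and lies below it in 3 of 3 embryos at the 1K-cell stage.

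The share of every member was below the median of the 5 vegetal germ-line RNAs in 12 of 12 embryos. The references were chosen as vegetal in these libraries, and 99.4% of all transcripts fell below their median by an exact sign-flip permutation test, so nothing about the members can be read from this test. The mean difference from the reference median was -57.1 ± 12.4 percentage points for DAZL (SD, n = 12) and ranged from -75.6 for TDRD1 to -70.4 for TDRD7 among the others. Compared with each reference on its own, no member was above GRIP2, DND1, NANOS1 or TFAP2C in any embryo. The vegetal-to-animal differences of these RNAs lay above those of 99% to 99.9% of all transcripts, so this comparison does not set the members apart. GRIP2 had a mean share of 99.6% at the 1-cell stage and 97.3% at the 1K-cell stage.

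RBPMS2 declined from 76.2% ± 2.4 to 35.6% ± 6.0 between these stages (SD, n = 3). At the 1K-cell stage its shares were 37.4%, 40.5% and 28.9%, and DAZL exceeded it in 3 of 3 embryos, with 44.8%, 50.9% and 29.9%. At the 64-cell stage DAZL exceeded RBPMS2 in 1 of 3 embryos (43.4% against 39.2%) and at the earlier stages in 0 of 3. The vegetal-to-animal differences of DAZL and RBPMS2 were also close in size, 0.71 ± 0.27 beside 0.72 ± 0.08 in 64-cell embryos, while in 1K-cell embryos DAZL had 0.88 ± 0.34 beside 0.69 ± 0.14 for RBPMS2. The difference between these transcripts was not tested. Of the low-count members, DDX4-2 was above RBPMS2 in 1 embryo at each of the 64-cell and 1K-cell stages, TDRD7 in 1 embryo at the 4-cell stage and TDRD9 in 1 embryo at the 1K-cell stage.

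Whole embryos were compared by the sum of the counts of their sections, scaled between embryos by median-of-ratios size factors. The sections were not scaled before summing, so a section with more counts weighs more in the total. A total is therefore not an amount of RNA per embryo. DDX4-1 was at 826, 852 and 747 normalized counts in the 1-cell embryos and at 1608, 1549 and 1757 in the 4-cell embryos. It was at 1490, 1853 and 1296 at the 64-cell stage and at 1464, 1568 and 1736 at the 1K-cell stage. Every later embryo was above every 1-cell embryo, which held for 10.2% of all transcripts. The 4-cell total was higher than the 1-cell total by 1.02 ± 0.13 on the log2 scale, a ratio of 2.03 (edgeR adjusted p = 2.00e-04), and 5.51% of all transcripts were called higher in this comparison. A rise of at least this size was found for 7.92% of transcripts, so the size of the DDX4-1 change is not unusual in these data. The 1 member called by the test over all stages was DDX4-1 (adjusted p = 3.27e-04), against 15.8% of transcripts. The call was kept under each alternative tried, including the sums without 1-cell replicate 3, which lacks section D.

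**Figure D4:**
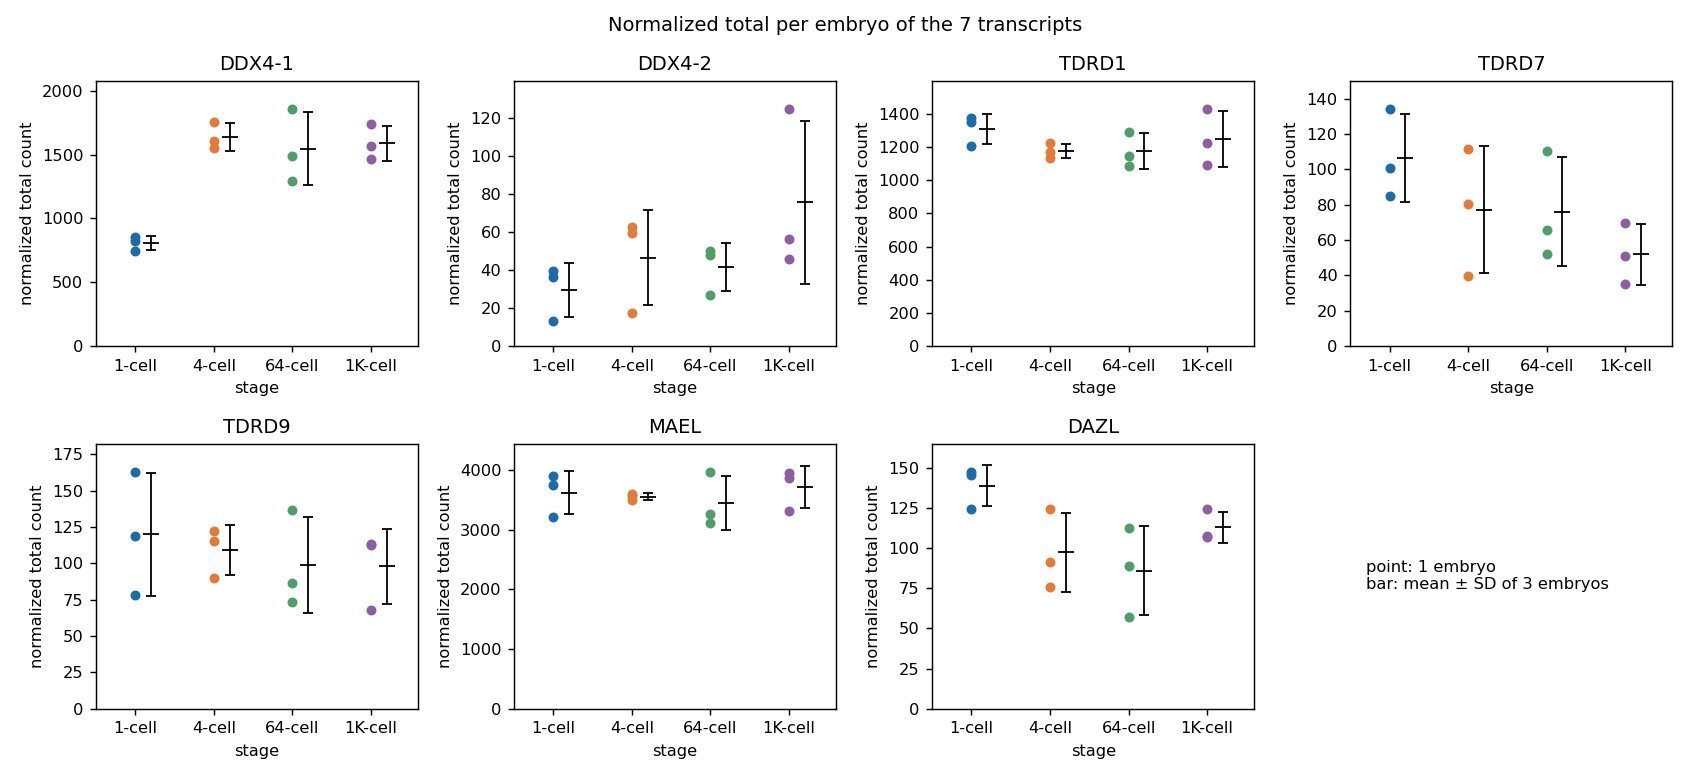
Normalized total count per embryo (y axis, own scale in each panel) of the 7 transcripts at the 4 stages (x axis), with 1 point per embryo and the mean ± SD of 3 embryos beside it. DDX4-1 lies between 747 and 852 at the 1-cell stage and between 1296 and 1853 later. The 1-cell totals of DAZL lie above its later totals, by a narrow margin (124.41 against 124.33), and the stages of the other members overlap in part.

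The higher level of DDX4-1 was seen in each section. From the 1-cell to the 4-cell stage the mean normalized count went from 133 to 347 in section A, from 194 to 346 in section B, from 164 to 304 in section C, from 163 to 282 in section D and from 138 to 245 in section E. In all 5 sections the lowest 4-cell library was above the highest 1-cell library, by a narrow margin in section E (152 against 151), and 2.89% of all transcripts did so in all 5. Only this direction was examined, and DDX4-1 was the only member with the order, so the percent is no measure of how unusual DDX4-1 is. The ratio of the means was 2.60 in section A and between 1.72 and 1.86 in the other sections. The leukocyte marker PTPRC, the only blood marker measured, also differed between these stages, with 21 to 95 counts per library at the 1-cell stage and 0 to 5 at each later stage, and its part in the result was not tested.

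The totals of the other members did not pass the test. MAEL was at 3617 ± 361 (SD, n = 3) at the 1-cell stage and 3706 ± 351 at the 1K-cell stage, and TDRD1 at 1310 ± 89.8 and 1249 ± 167. DAZL was at 139 ± 12.7 at the 1-cell stage, 97.3 ± 24.7 at the 4-cell stage, 86.1 ± 27.8 at the 64-cell stage and 113 ± 9.75 at the 1K-cell stage, which did not pass the test (adjusted p = 0.243). Every later embryo was below every 1-cell embryo for DAZL, by a narrow margin (124.33 against 124.41). The share of all transcripts with this order is not given here. TDRD7 went from 107 ± 25.0 to 51.9 ± 17.1 between the first and the last stage, with an adjusted p over all stages of 0.320. The median 4-cell minus 1-cell difference of the 7 members was -0.14 on the log2 scale, beside -0.03 over all transcripts. This median is the value of the low-count TDRD9 (-0.14 ± 0.33) and was not tested.

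Other genes of the pathway were taken from fixed lists. Over all transcripts, edgeR called 1.34%, 0.170%, 0.407% and 0.344% in the animal direction from the first to the last stage, beside the vegetal percentages given above. The DESeq2 percentages above hold for either direction. Its shares by direction are not given here, so DESeq2 calls by direction in the lists below cannot be set against a background. In the fit over all stages it called 9.99% animal and 12.2% vegetal. Of 17 further piRNA genes, 11 were measured with 14 transcripts, and 0 were called by section at any single stage by edgeR, with 1 to 4 at an unadjusted p under 0.05 and 1 to 2 called by DESeq2 per stage. Their median vegetal-to-animal difference lay between -0.19 and -0.12, and the fit over all stages called 4 of the 14, all animal. Among their totals, GTSF1, a small zinc finger partner of PIWI proteins, had a transcript that was higher at the 4-cell than at the 1-cell stage (1.18 ± 0.11, adjusted p = 1.31e-05) and a transcript that was lower (-3.11 ± 0.18, adjusted p = 3.10e-07). Of all transcripts, 5.51% were called higher in this comparison, and the share called lower is not given here.

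Of 15 further tudor domain genes, 12 were measured with 24 transcripts, with medians between -0.22 and 0.04. TDRD6, a germ granule scaffold related to frog Xtr and zebrafish Tdrd6, was called in the animal direction at the 1-cell (-0.99 ± 0.09), 4-cell (-0.66 ± 0.09) and 64-cell (-0.78 ± 0.08) stages (adjusted p = 1.49e-04, 0.00471 and 0.00110), the same direction as TDRD1. AKAP1, a mitochondrial anchoring protein, was called vegetal at the 1-cell stage (0.66 ± 0.07, adjusted p = 0.00121), and SND1, a general tudor domain RNA-binding protein, at the 64-cell stage (0.42 ± 0.05, adjusted p = 0.00232). DESeq2 called 1, 2, 3 and 1 of the 24 animal and 2 vegetal at each stage, and the fit over all stages called 3 animal and 2 vegetal.

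The PRMT5 methylosome, which marks the arginines that tudor domains bind, was measured with 5 transcripts of 4 genes, and 0 were called at any single stage by edgeR, with 1 to 3 at an unadjusted p under 0.05 and 1 or 2 called by DESeq2. In the fit over all stages 4 of the 5 were called in the animal direction (median -0.31, beside -0.04 over all transcripts). Of the DAZ partners, 13 transcripts of 7 genes, 0 were called at any single stage by edgeR, with 1 at an unadjusted p under 0.05 in each stage, and DESeq2 called 1 at the 1-cell stage and 0 later (medians between -0.25 and 0.05). Over all stages 1 of the 13 was called, in the vegetal direction.

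Of the Argonaute and microRNA genes, 46 transcripts of 12 genes, edgeR called 1, DGCR8, the partner of the nuclear microRNA-processing enzyme, in the animal direction at the 64-cell stage (-0.62 ± 0.10, adjusted p = 0.00976). Between 5 and 11 of the 46 had an unadjusted p under 0.05 per stage, DESeq2 called 6, 3, 4 and 4 from the first to the last stage, all animal, and the fit over all stages called 7, all animal. Of the P-body and maternal RNP genes, 26 transcripts of 14 genes, 3 were called animal at the 1-cell stage, the helicase DDX6 (-0.60 ± 0.09, adjusted p = 0.00428), the exonuclease XRN1 (-0.28 ± 0.06, adjusted p = 0.00639) and the translation repressor PATL2 (-0.53 ± 0.08, adjusted p = 0.00769), and DDX6 was called again at the 1K-cell stage (-0.34 ± 0.05, adjusted p = 0.00449). DESeq2 called 4, 3, 4 and 4 of the 26 animal and 1 vegetal, the latter at the 1-cell stage, and the fit over all stages called 4, all animal.

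Egg markers, 14 transcripts of 5 genes, moved the other way. Of these, 8 were called vegetal at the 1-cell stage, 3 at the 4-cell stage and 1 at each of the last stages, where 5.62%, 2.09%, 3.31% and 3.22% of all transcripts were called vegetal. The transcripts called at the 1-cell stage were all of ZP4, ZP3 and BMP15, so they are not independent markers. DESeq2 called 11, 10, 4 and 4 of the 14 vegetal, and the fit over all stages called 10. The egg coat gene ZP3 had the smallest adjusted p, with a difference of 1.53 ± 0.09 at the 1-cell stage (adjusted p = 5.36e-06). No transcript carried a sperm or follicle marker symbol of the lists used here.

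The profiles of the members over the means of the 20 stage and section groups were compared with one another and with those of other named transcripts, as a description over groups that share libraries and depth. MAEL and TDRD1 had the most similar profiles among the members (Pearson r = 0.88), and DAZL was correlated negatively with DDX4-1 (r = -0.58), MAEL (r = -0.46) and TDRD1 (r = -0.36). Among 9434 named transcripts with a mean of at least 50 normalized counts, those most like DDX4-1 were KLHL8, TSEN34 and BOD1L1 (r between 0.97 and 0.98). IPO7, TUBGCP3 and NUP133 were most like TDRD1 (r = 0.96), and NCOA3, SDHC and TRAPPC8 most like MAEL (r between 0.94 and 0.95). The low-count members had weaker best matches, with PHTF2, OSBPL8 and ARF4 for DAZL (r between 0.80 and 0.81), SPEN, BIRC5 and PDF for TDRD7 (r between 0.76 and 0.80) and SLX4, TTK and SRI for TDRD9 (r between 0.80 and 0.83).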

How the data were processed

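Sections of 12 embryos were measured by RNA-seq, 59 libraries with 1546418 to 6001350 counts (median 3881582). Per the labels and the study's methods, the authors trimmed reads (Trimmomatic), removed ribosomal reads, estimated counts per transcript with kallisto 0.43.1 against a transcriptome assembly and kept transcripts with more than 30 counts in a library. The deposited estimated counts are whole numbers. The deposited normalized signal equals these counts divided by DESeq2 size factors over all libraries. Totals were summed here from the counts of the sections of each embryo, without scaling the sections first. Deposited totals and tables normalized within a stage were not used here. No length scaling is included, so levels were not compared between genes. Library kits were directional.

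Counts were tested with edgeR 4.0.16 (quasi-likelihood F test, trended dispersion, median-of-ratios size factors, R 4.3.3), adjusted over all 28909 transcripts, and called at an adjusted p below 0.01 with a mean total above 20. Percentages of all transcripts refer to the 28772 above that minimum, or to those with a section E share in all embryos. Section tests within a stage had the embryo as a block, since the 5 sections of an embryo share it. The interaction and the totals had no block. DESeq2 1.42.0, TMM scaling, filterByExpr, an adjusted p below 0.05, summing transcripts of a symbol, changing the block and leaving out each embryo were alternatives. Section E shares were tested by an exact permutation test over embryos (numpy 2.4.6). Per-embryo directions used log2(normalized count + 1). The edgeR tests were tested on simulated data. P-values of the totals and of the section E shares measure the spread between embryos. In section tests with an embryo term, within a stage or over all stages, the level of each embryo is removed. Their p-values measure the remaining spread of the libraries, and the sections of an embryo count as independent there. The interaction test without a block also treats the sections of an embryo as independent libraries.

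The members and gene lists were chosen with earlier results of these data known. All member transcripts were named, together with the most abundant transcript of each reference gene, up to 4 called transcripts of each other list with the smallest adjusted p for section, and the 3 most similar named transcripts for each member gene. The GTSF1 and PTPRC totals were named after their values were seen. Intervals and floors cover counting error only.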

Additional observations from a re-analysis of the deposited data

Results flagged for a closer look

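The vegetal-to-animal difference of DAZL was above 0 in all 3 embryos of the 1-cell, 64-cell and 1K-cell stages and below 0 in all 3 embryos of the 4-cell stage. The mean per-embryo difference at the 4-cell stage was exceeded by 1.79 on the log2 scale at the 1-cell stage, by 1.28 at the 64-cell stage and by 1.5 at the 1K-cell stage. The difference of TDRD7 was above 0 in all 3 embryos of the 1-cell stage and below 0 in all 3 embryos of the 64-cell stage, 1.76 apart. These genes and pairs of stages were picked after their values were seen, and the share of all transcripts with such opposite signs was not computed. The differences between these pairs of stages were not tested on their own. The section by stage interaction over all 4 stages did not pass for either gene (edgeR adjusted p = 0.779 for DAZL and 1 for TDRD7), and both genes had low counts. In 1-cell replicate 3, which lacks section D, these per-embryo values compare section E alone with A and B.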

How the results depend on the processing

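The number of members called by section changed with the tool and with the embryos used. DESeq2 called 3 members at the 1-cell stage, 1 at the 4-cell stage, 2 at the 64-cell stage and 1 at the 1K-cell stage, where edgeR called 1, 0, 1 and 0. At an adjusted p below 0.05, 2 members were called at the 1-cell stage and 2 at the 64-cell stage, and the vegetal-to-animal contrast alone, chosen after seeing the data, also gave 2 and 2. Of all transcripts, 8.06% passed the contrast at the 1-cell stage. The shares for the contrast at the 64-cell stage and for the looser threshold are not given here, so these counts cannot be set against a background. Leaving out 1 embryo left 0 to 0 calls at both stages. TMM, filterByExpr and summing transcripts of a symbol changed no count of calls. The cause was not tested.

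Without the replicate block, 0 members were called at the 64-cell stage, and DDX4-1 was lost there. The other stages, the interaction with a block and the totals with the title numbers as a block kept their calls, although the labels number the embryos from 1 to 12 and the title numbers therefore do not pair embryos of different stages.

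Signs turned only for low-count or near-zero differences that were not called. Leaving out 1 embryo at a time, DDX4-2 at the 64-cell stage ranged from -5.34 to 0.988 (without replicate 2), TDRD9 at the 1K-cell stage from -0.184 (without replicate 2) to 0.562, and TDRD7 at that stage from -1.07 to 0.419 (without replicate 3). In the 4-cell minus 1-cell totals, sums of normalized counts without 1-cell replicate 3 gave 0.0318 for TDRD9 and 0.0509 for MAEL, and fits with each embryo removed ranged from -0.371 to 0.145 for TDRD9 (highest without 1-cell replicate 1) and from -0.104 to 0.0308 for MAEL (highest without 1-cell replicate 3). Over all stages TDRD7 was at -0.0425 without the 1-cell stage and -0.0640 without the 4-cell stage, and TDRD9 at 0.00428 without the 1-cell stage. The rise of DDX4-1 was kept under all alternatives tried. Depth limits DDX4-2, TDRD7, TDRD9 and DAZL, whose counts per library did not exceed 60.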
